A study of Homo sapiens with 42 samples.

Results

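Chromatin accessibility was compared between MCF10A cells given hepatocyte growth factor (HGF) for 48 h and cells given PBS, the vehicle, for 48 h, with 3 libraries (A, B and C) in each group and so 6 of the 42 libraries analysed. MCF10A is an established cell line derived from non-tumorigenic human mammary epithelium. Both groups were plated on collagen and moved, before the ligand was added, to a medium without EGF and insulin that kept horse serum, hydrocortisone and cholera toxin. The HGF group then received HGF at 40 ng/ml and the PBS group no growth factor. The other 36 libraries were CTRL, taken at 0 h before any ligand, and libraries taken at 24 h or 48 h. They held HGF and PBS at 24 h, and EGF, OSM (oncostatin M), IFNG with EGF and TGFB with EGF at both times. They also entered the classes of sites and the fit of site detection. The peaks listed for the 6 libraries on chromosomes 1 to 22 and X were merged where they overlapped, which gave 89563 sites, and the 65228 sites with a peak in at least 2 of the 6 libraries were tested. The study's own sample annotation marks PBS library C as below its quality threshold for the fraction of reads in peaks. It passes the other 5. Some results are also given without PBS library C, and all others include it. Among those that include it are the promoter share at equal peak number and the contrast of distal and promoter sites. The counts of sites with a peak in 1 group alone include it as well.

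HGF is a secreted ligand made mainly by stromal cells, and its receptor MET is a tyrosine kinase of epithelial cells that signals through adaptor proteins to the MAPK, PI3K and STAT3 pathways and is known for cell scattering, migration and tubule formation. The assay for transposase-accessible chromatin (ATAC-seq) inserts adapters into DNA that is free of nucleosomes, so that promoters and enhancers appear as peaks of fragments. AP-1, a dimer of FOS and JUN proteins that growth factor signalling induces, binds many enhancers of epithelial cells.

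For 4 of the peaks described below, the reference sequence under them is shown. It is hg38 sequence on the plus strand from 100 bases before to 100 bases after the summit. They are examples, and the main limma fits called none of them. The ANK2 intron (chr4:113300469-113300669) held a peak that was listed in all 6 libraries and had a higher fold enrichment in each HGF library than in any PBS library. The site far from SEMA5A (chr5:8981163-8981363), the site upstream of CD44 (chr11:35111652-35111852) and the ITGA2 intron (chr5:53036214-53036414) had a peak in all 3 HGF libraries and in no PBS library. None of the 4 stretches overlaps an exon of a protein-coding gene. Capitals mark the AP-1 string TGANTCA, which reads the same on both strands and lies in this window at 36.2% of the tested sites. All 4 stretches hold it, but the sites described below near KLF5 and in an intron of MAML2 do not.
ANK2 intron: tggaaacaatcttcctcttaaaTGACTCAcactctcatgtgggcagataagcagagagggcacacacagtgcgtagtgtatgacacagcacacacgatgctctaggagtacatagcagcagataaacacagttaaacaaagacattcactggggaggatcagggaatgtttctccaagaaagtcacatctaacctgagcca
SEMA5A distal: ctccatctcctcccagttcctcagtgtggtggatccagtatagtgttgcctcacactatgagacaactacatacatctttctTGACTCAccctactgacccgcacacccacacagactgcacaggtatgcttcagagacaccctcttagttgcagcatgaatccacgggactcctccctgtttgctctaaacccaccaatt
CD44 upstream: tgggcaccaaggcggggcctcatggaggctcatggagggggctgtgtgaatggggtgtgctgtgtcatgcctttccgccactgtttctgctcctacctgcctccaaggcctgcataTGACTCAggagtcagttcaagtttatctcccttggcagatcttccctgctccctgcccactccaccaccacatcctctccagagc
ITGA2 intron: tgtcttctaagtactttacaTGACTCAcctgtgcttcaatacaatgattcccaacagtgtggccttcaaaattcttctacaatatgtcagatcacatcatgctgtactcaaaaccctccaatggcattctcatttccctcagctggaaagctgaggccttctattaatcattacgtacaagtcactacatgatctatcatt

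The HGF libraries listed more peaks, and a smaller share of them lay at promoters. HGF libraries A, B and C listed 87401, 92751 and 34001 peaks, and PBS libraries A, B and C listed 51628, 51525 and 16265. The groups overlapped, because HGF library C listed fewer peaks than PBS libraries A and B, although in each lettered pair the HGF library listed more. The ratio of geometric means was 1.85 and the exact permutation test gave p = 0.3, two-sided, where 3 libraries against 3 cannot give a p below 0.1. The sequencing lane was shared within the B pair and within the C pair, and there the ratios were 1.8 and 2.09. Without PBS library C the ratio was 1.26, and without HGF library C it was 2.56. Read totals were not analysed here, so the depth is unknown, but the fragments per base that the peak caller took as background could be recovered from the values, and these were 2.22, 2.33 and 1.59 with HGF and 1.81, 1.88 and 1.5 with PBS. This background was higher in the HGF library of every lettered pair, and its part in the peak numbers cannot be told apart from that of the ligand.

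A peak was counted at a promoter when its summit, the base with most fragments, lay within 1000 bp of a transcription start of a protein-coding gene. The promoter share was 22.8%, 22.4% and 32.3% of peaks in HGF libraries A, B and C, and 31.9%, 32.1% and 42.6% in the PBS libraries. The means were 25.8% ± 5.58 and 35.5% ± 6.12 (SD, n = 3 each), a difference of -9.69 percentage points with an exact permutation p of 0.3, and only HGF library C overlapped the PBS range. Since longer peak lists hold more weak distal peaks, the shares were also taken over the 15670 strongest peaks of each library, the number that PBS library C lists. There the promoter share was 35.2%, 38% and 35.1% with HGF and 49.7%, 48.7% and 42.6% with PBS. At equal number the groups did not overlap, with means of 36.1% ± 1.68 and 47% ± 3.85 (SD, n = 3 each), a difference of -10.9 points and an exact permutation p of 0.1, the smallest this design allows. Within the shared lanes the difference was -10.7 points for B and -7.54 points for C.

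Tandem repeats took a larger share of the peaks with PBS. Sites whose surroundings repeat themselves at the spacing of alpha satellite held 0.916%, 0.749% and 3.11% of peaks in HGF libraries A, B and C, and 2.46%, 3.5% and 11.8% in PBS libraries A, B and C. The share was higher with PBS in each lettered pair, but the groups overlapped, and the exact permutation test gave p = 0.2. Reads in such repeats map to many places, so single sites of this kind are uncertain.

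**Figure D1:**
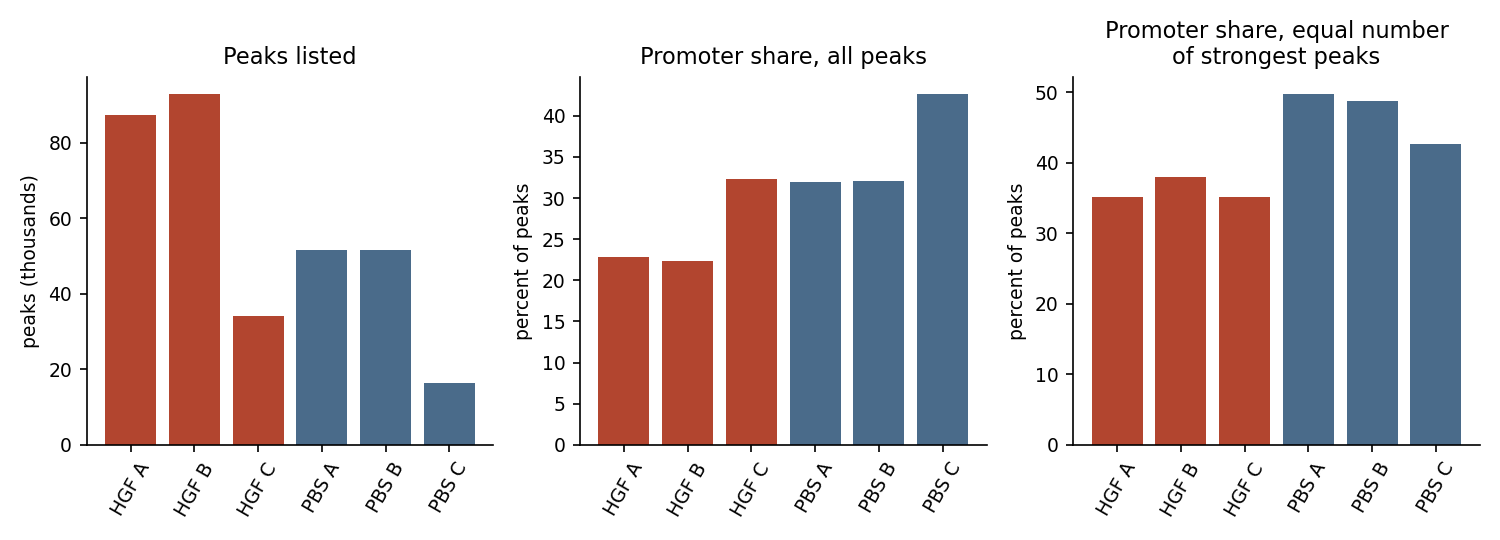
Bars give 1 value per library, HGF libraries A to C in red and PBS libraries A to C in blue. From left to right they show the number of peaks listed, the percent of all peaks within 1000 bp of a transcription start, and the same percent over the 15670 strongest peaks. Peak number overlaps between the groups, from 34001 to 92751 with HGF and from 16265 to 51628 with PBS, while the promoter share of the strongest peaks does not, at 35.1% to 38% with HGF and 42.6% to 49.7% with PBS.

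MCF10A identity was checked at the promoters of 11 mammary epithelial markers, such as the keratins and the adhesion proteins EPCAM and CDH1. Peaks were listed at 10, 9 and 6 of these promoters with HGF and at 8, 8 and 1 with PBS, and TP63, a regulator of basal cells, had a promoter peak in no library. Endothelial and hepatic markers had a promoter peak in no library, and the haematopoietic markers PTPRC, CD3E and SPI1 also had none. Of 5 haematopoietic markers, 1 had a promoter peak, CD68, which had a peak in every library, and the summed fold enrichment of that list was 9.94, 7.4 and 4.85 with HGF and 4.56, 5.49 and 4.05 with PBS. Of 3 neuronal markers, 1 had a promoter peak in all libraries but PBS library C.

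Counts of sites with a peak in 1 group alone followed the unequal peak lists. Of the 65228 tested sites, 2011 (3.08%) had a peak in all 3 HGF libraries and in no PBS library, and 99 (0.152%) had a peak in all 3 PBS libraries and in no HGF library. Of the 2011 sites, 78 lay at a promoter (3.88%, against 19.3% of all tested sites), and 1 was a tandem repeat. Of the 1932 that were distal and outside repeats, 887 held the AP-1 string (45.9%), close to the 44.4% of all 51225 distal tested sites outside repeats. Of the 99 sites, 93 were tandem repeats and none lay at a promoter, which leaves 6 sites (0.0094% of the 63816 tested outside repeats) against 2010 (3.15%). Over the 15670 strongest peaks of each library the counts lay closer together. Of the 18536 sites that held such a peak in at least 2 of the 6 libraries, 868 (4.68%) held one in all 3 HGF libraries and in no PBS library, and 577 (3.11%) in all 3 PBS libraries and in no HGF library. The kind of site differed, since 56 of the 868 lay at a promoter (6.45%) and 396 of the 577 (68.6%), against 38.2% of the 18536, and 7 of the 577 and none of the 868 were tandem repeats. Because each library's peak number moves such counts, detection was adjusted by taking from each 1 or 0 the share of sites of the same class that the library detects, where the class is the number of the 42 libraries with a peak at the site. On adjusted detection limma called 0 sites at an adjusted p below 0.01, with a smallest adjusted p of 0.0433. At an unadjusted p below 0.05 there were 2164 sites higher (3.32%) and 2208 lower (3.39%) with HGF. The adjustment centres each library within each class of sites, so the balance of these counts does not compare gains with losses. Without a lower limit on the spread of a site limma called 99 sites (56 higher and 43 lower), and with library weights 1578 (1355 higher and 223 lower).

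Among the sites that switched, the strongest were read as a description. For these, a peak among the 15670 strongest was required in all 3 libraries of 1 group and no listed peak of any strength in the other group. This gave 34 sites with HGF and 6 with PBS, of which 4 were tandem repeats. The longer lists of the HGF libraries make the second condition harder to meet for a PBS site, so the 2 counts are not a comparison of the groups. Of the 34, 1 lay at a promoter, that of ARHGAP32. These sites were chosen for their pattern, so their values are given without a test.

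Among the HGF-only sites of highest mean enrichment was an intergenic one (chr5:8981117-8981779), 565 kb from the start of SEMA5A, a semaphorin that guides axons and cell migration. Its fold enrichment, the ratio of fragments at the summit to the local background, was 17.4, 15.9 and 9.66 in HGF libraries A, B and C. A further site lay in an intron of MAML3, a Mastermind coactivator of Notch signalling (chr4:139872280-139872803), with 15.9, 20.3 and 7.42. Sites near ZFAT, a zinc-finger protein, and in an intron of ATP6V0D2, a subunit of the vacuolar proton pump, reached 17.8, 19.4 and 9.72 and 18.7, 18.6 and 9.56. In each of these 4 sites HGF library C had the lowest value, and its median over all peaks (5.77) was also the lowest of the HGF libraries.

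The PBS-only site of highest enrichment lay in an intron of KIAA0825 (chr5:94569383-94569537), with 31.3, 31.4 and 15.4 in PBS libraries A, B and C. It spans 155 bp and was listed in 7 of the other 36 libraries. The other named PBS-only site was a tandem repeat on chromosome 17, 1505 kb from the start of WSB1, with 16.8, 15.9 and 16.8.

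Most of the HGF-only sites also had a peak before the ligand was added. Outside tandem repeats there were 2010 such sites, and the 36 libraries of the other groups played no part in choosing them. In the 4 CTRL libraries, taken at 0 h, 96.4% to 98% of these sites had a peak, against 91.6% to 93.3% of all tested sites. In the 4 libraries given EGF for 48 h, 86.7% to 94.4% had a peak, against 78.6% to 85.7% of all tested sites. Each of the 34 strongest sites had a peak in all 4 CTRL libraries and all 4 EGF libraries at 48 h. The median number of other libraries with a peak was 23 of 36 for the 2011 sites and 24 for all tested sites.

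At 24 h, libraries from the same treatments gave a test that the choice of sites did not use. Of the 2010 sites, HGF libraries A, B and C at 24 h detected 97.9%, 95.2% and 38.8%, and PBS libraries A, B and C at 24 h detected 93.8%, 31.9% and 24.8%. The same libraries detected 93%, 88.1% and 47% and 92.7%, 54.3% and 47.3% of all tested sites. Relative to the number predicted from sites of the same class, the HGF libraries deviated by 2.2%, 3.15% and -4.76% and the PBS libraries by -0.72%, -36.5% and -39.8%. PBS library A at 24 h lay within the range of the HGF libraries, and PBS libraries B and C lay far below it. The means were 0.195% ± 4.32 and -25.7% ± 21.7 (SD, n = 3 each), with an exact permutation p of 0.2. For the 34 strongest sites the means were 5.45% ± 8.19 and -18.4% ± 22.2 and the groups did not overlap, with an exact permutation p of 0.1. The HGF libraries A, B and C deviated by 0.613%, 0.822% and 14.9% and the PBS libraries by -4.45%, -6.73% and -44%. HGF libraries A and B detected all 34 and PBS library A 32, so few sites part these libraries.

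**Figure D2:**
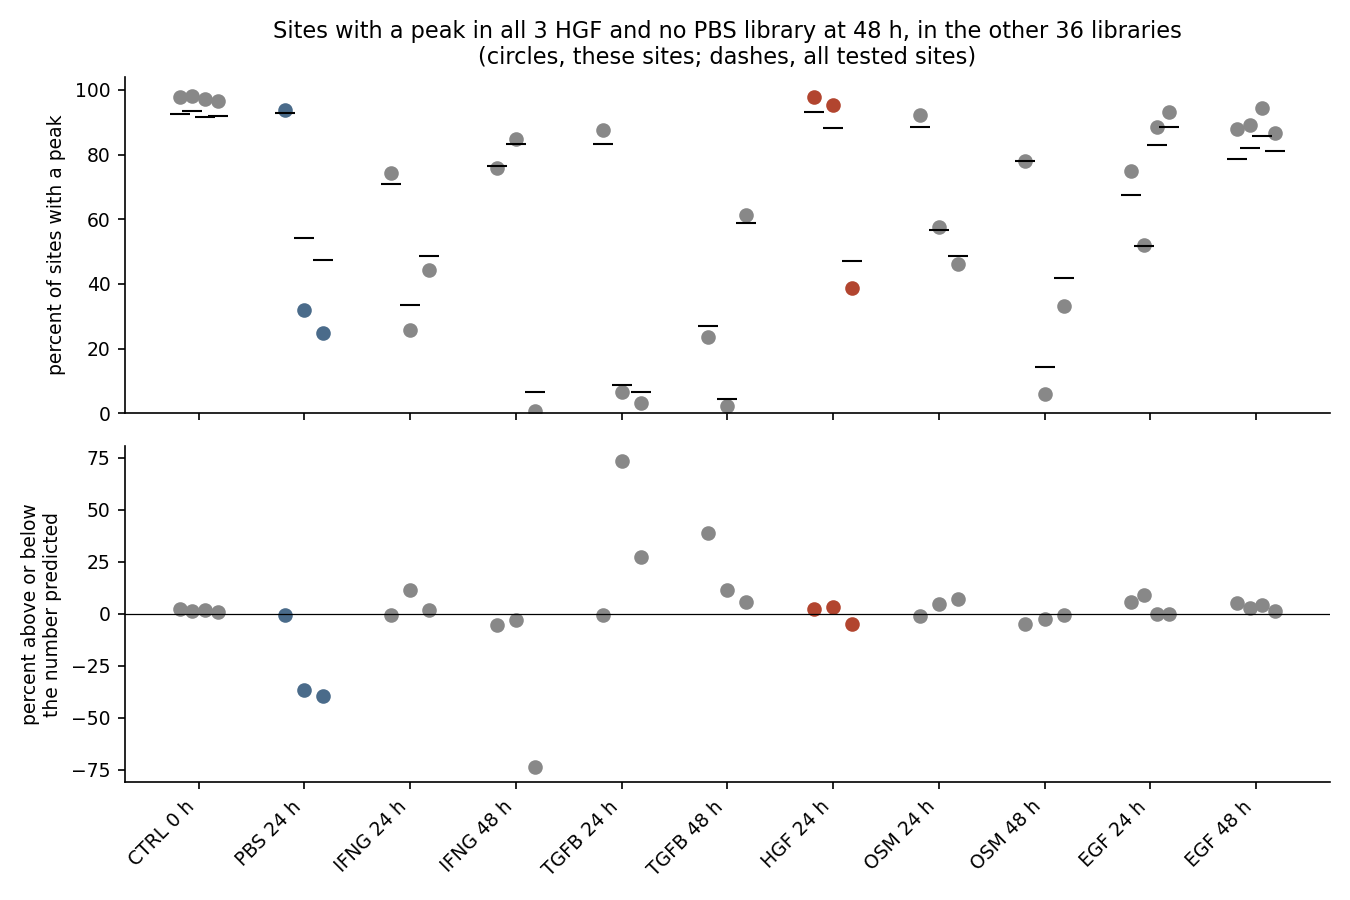
The 2010 sites with a peak in all 3 HGF and no PBS library at 48 h, in the other 36 libraries, by treatment and time (IFNG and TGFB were given with EGF), with 1 circle per library, HGF in red and PBS in blue. The upper panel gives the percent of these sites with a peak, with dashes for all tested sites, and the lower panel the percent deviation from the number predicted. PBS libraries B and C at 24 h lie at -36.5% and -39.8%, and the CTRL libraries between 0.607% and 2.18%.

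Peak strength could be compared at the 11345 sites that were listed in all 6 libraries. There the distal peaks of the HGF libraries were stronger relative to the promoter peaks of the same libraries than those of the PBS libraries, with small shifts of the medians and no single site past the threshold. limma on quantile-normalized log2 fold enrichment called 0 sites at an adjusted p below 0.05, with a smallest adjusted p of 0.0562. At an unadjusted p below 0.05 there were 971 sites higher (8.56%) and 799 lower (7.04%). The groups did not overlap at 1223 sites with HGF higher (10.8%) and at 1233 with HGF lower (10.9%). With the letter as a replicate block limma called 33 sites, 23 higher and 10 lower. Without PBS library C, over the 22747 sites listed in the other 5 libraries, it called 83 higher (0.365%) and 14 lower (0.0615%), and at an unadjusted p below 0.05 there were 2202 higher (9.68%) and 1942 lower (8.54%). Library weights gave 527 calls higher and 296 lower.

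After quantile normalization, which gives all libraries the same distribution over the sites and so makes each difference relative to the other sites, the direction followed the kind of site. Among the 5440 promoter sites the median log2 difference, HGF minus PBS, was -0.10, with 111 sites higher and 577 lower at an unadjusted p below 0.05. Among the 5603 distal sites outside repeats it was 0.11, with 858 higher and 165 lower. The median over all 11345 sites was -0.01. The 302 tandem-repeat sites had a median of -0.27, with 2 higher and 57 lower. Among distal sites the median was 0.04 at 1 to 10 kb from a start, 0.10 at 10 to 50 kb and 0.14 beyond 50 kb, so it was larger in each class farther from a gene. Distal sites with the AP-1 string had a median of 0.15 (2581 sites) and those without it 0.07 (3022 sites). Those with the same string written backwards had 0.19 (399 sites), so a higher median was not particular to the AP-1 string.

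As deposited, the median fold enrichment of promoter sites was 11.1, 11.8 and 6.9 in HGF libraries A, B and C and 11.7, 11.7 and 6.45 in the PBS libraries, so it was lower with HGF in the A pair and higher in the B and C pairs. That of distal sites was 12.1, 12.6 and 7.14 with HGF and 10.6, 10.5 and 6 with PBS, higher with HGF in every pair. The negative promoter median is therefore a difference relative to the other sites and was not a fall in the deposited values in all pairs. The contrast between distal and promoter sites was seen in the deposited values within each library. The median log2 fold enrichment of distal sites less that of promoter sites was 0.129, 0.091 and 0.0493 in HGF libraries A, B and C, and -0.139, -0.148 and -0.105 in PBS libraries A, B and C. Every HGF library had stronger distal than promoter peaks, and every PBS library had the reverse. The means were 0.0898 ± 0.0398 and -0.131 ± 0.0224 (SD, n = 3 each), a difference of 0.22, which was 0.239 within the B lane and 0.155 within the C lane. The exact permutation test gave p = 0.1, the smallest it can give, and this measure was chosen after the values were seen.

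**Figure D3:**
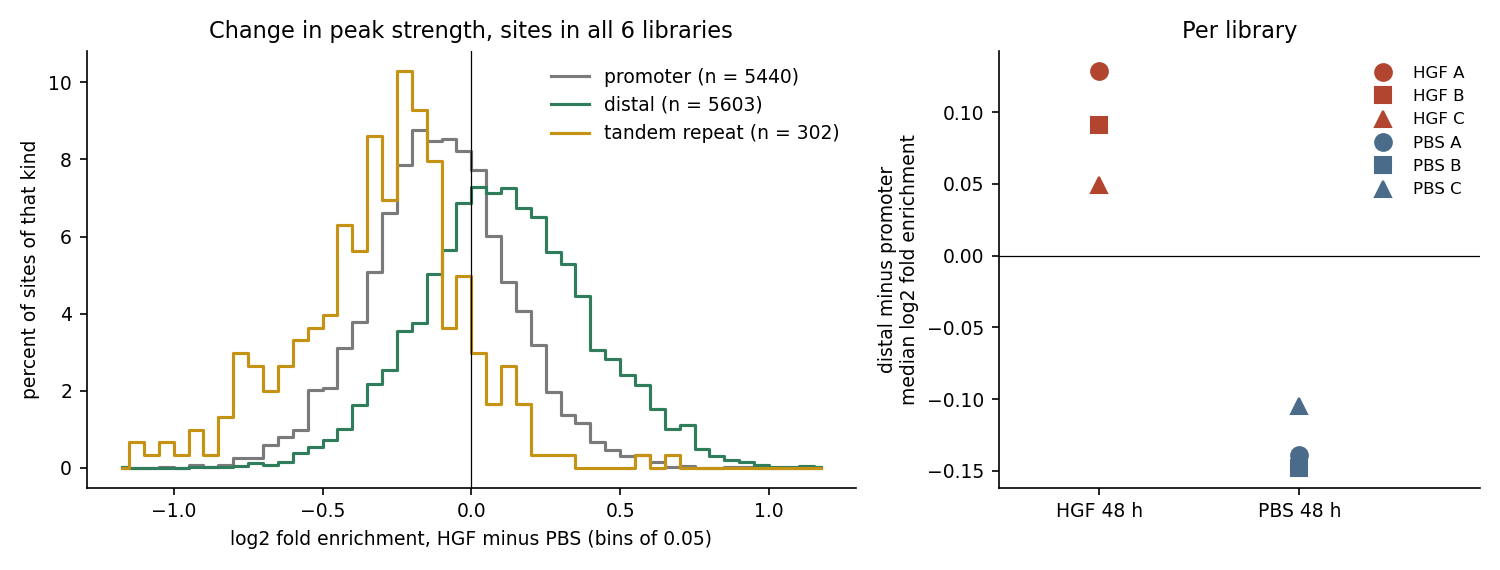
Left, distribution of the log2 difference in fold enrichment, HGF minus PBS, over the sites listed in all 6 libraries, by kind of site, with values beyond the ends of the axis drawn in the outermost bins. Right, the median log2 fold enrichment of distal less promoter sites in each library, which is above 0 in the 3 HGF libraries (0.0493 to 0.129) and below 0 in the 3 PBS libraries (-0.148 to -0.105).

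The sites called higher were distal nearly throughout. Of the 83 called higher without PBS library C, 1 lay at a promoter (1.2%, against 35.7% of the sites tested there) and 82 were distal and outside repeats. Of these 82, 37 held the AP-1 string (45.1%), against 47.9% of the 14329 distal sites tested there. Of the 83, 73 had no peak in PBS library C. Of the 23 called higher with the replicate block, all were distal and outside repeats and 14 held the AP-1 string (60.9%), against 46.1% of the 5603 distal sites tested there, a difference that was not tested. Both analyses called 8 sites higher and 2 lower, and those reported here are described next. All 10 were called by alternatives and not by the analysis of all 6 libraries without a block, where the adjusted p of limma ranged from 0.0562 to 0.121.

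ANK2 encodes ankyrin-B, which ties membrane proteins to the spectrin skeleton. The site in its intron (chr4:113300272-113300820, 7.42 kb from the start), whose sequence is given above, had a fold enrichment of 16.7, 18.9 and 11.9 in HGF libraries A, B and C and of 8.63, 7.71 and 4.57 in PBS libraries A, B and C. All HGF values lay above all PBS values. The log2 difference was 1.11 ± 0.16 (SE), with a limma adjusted p of 0.0562 over all 6 libraries, 0.0325 with the block and 0.0347 without PBS library C.

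An intergenic site 363 kb from KLF5, a zinc-finger factor of epithelial cells (chr13:73421269-73421997), had 14, 15.4 and 10.1 with HGF and 6.99, 6.37 and 4.39 with PBS, a log2 difference of 1.04 ± 0.17 (SE). In an intron of MAML2, another Mastermind coactivator of Notch (chr11:96207374-96207930), the values were 13.1, 14.7 and 11.1 with HGF and 6.19, 7.12 and 5.59 with PBS, a log2 difference of 0.87 ± 0.20 (SE). The site near GADL1, a decarboxylase (chr3:31077040-31077511), gave 14.7, 14.9 and 8.61 with HGF and 7.43, 4.01 and 4.06 with PBS, a log2 difference of 1.23 ± 0.22 (SE). At these 3 sites the groups did not overlap.

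Sites called higher by both also lay 15 kb from BCAP29, a protein of the endoplasmic reticulum membrane, 250 kb from AVPR1A, a vasopressin receptor, and in an intron of CPNE4, a copine. Their log2 differences were 1.24, 0.86 and 0.82, and the groups did not overlap at any of them. Each of the sites described as higher had a peak in all 4 CTRL libraries and in 26 to 34 of the other 36 libraries.

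Both sites called lower were promoters. PDHX encodes a component of the pyruvate dehydrogenase complex, and its promoter (chr11:34915865-34916893, summit 63 bp from the start) had 9.01, 11.2 and 5 with HGF and 16.3, 16.7 and 7.8 with PBS. PBS library C lay below HGF libraries A and B, so the groups overlapped, while within each letter the PBS value was higher. The log2 difference was -0.85 ± 0.18 (SE), with limma adjusted p-values of 0.119 over 6 libraries, 0.0488 with the block and 0.0377 without PBS library C.

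The promoter of UCKL1, a kinase-like protein of the uridine-cytidine kinase family (chr20:63955882-63956830), had 10.5, 13.4 and 6.97 with HGF and 17.9, 18.5 and 10.4 with PBS. HGF library B lay above PBS library C, so the groups overlapped, and the log2 difference was -0.77 ± 0.15 (SE). Of the 14 sites called lower without PBS library C, 13 were promoters, among them those of ACTN4, an actin cross-linker (4.39, 3.92 and 3.58 with HGF and 9.31, 10.3 and 4.46 with PBS), PSMB6, a proteasome subunit, and MRPS23, a mitochondrial ribosomal protein. The remaining site, 197 kb from EPHA6, had 6.23, 4.7 and 3.33 with HGF and 25.8, 27.8 and 3.6 with PBS. PBS library C did not share the height of PBS libraries A and B there, and the log2 difference was -2.48 ± 0.22 (SE) without that library and -1.56 ± 0.51 (SE) with it. The 8 other sites called lower with the block were tandem repeats.

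**Figure D4:**
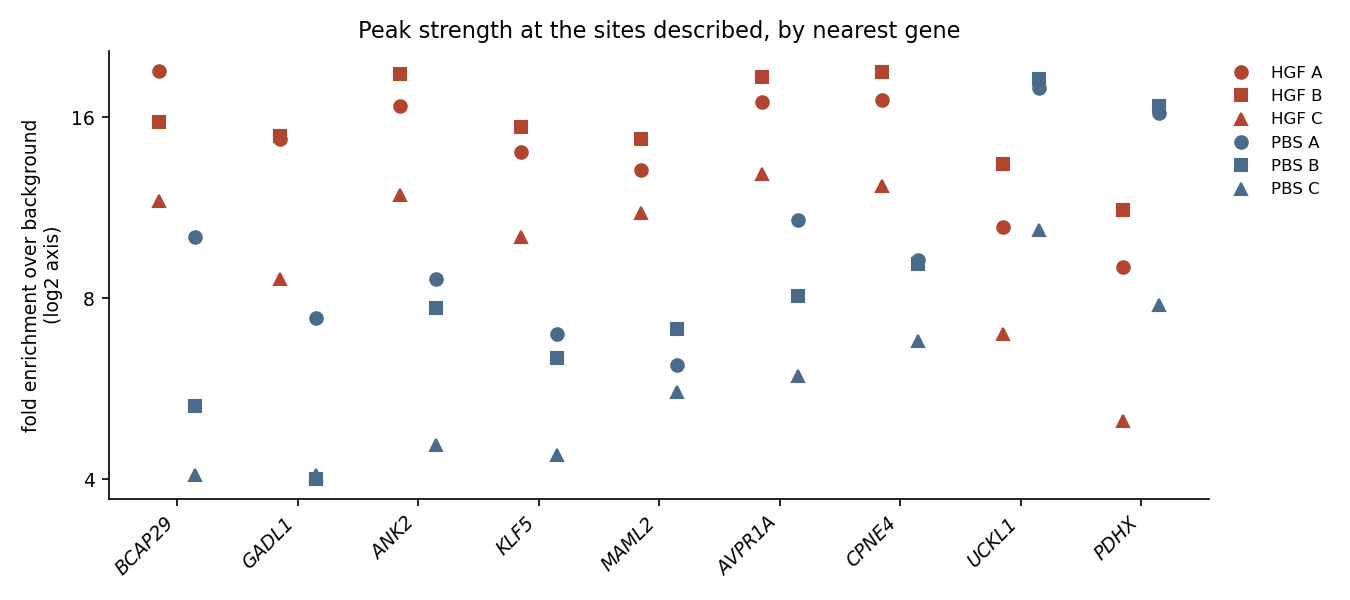
Fold enrichment at the sites described that were called both with the replicate block and without PBS library C, named by the nearest gene, with 1 point per library, HGF and PBS in different colours and the axis on a log scale. The ANK2 site lies at 11.9 to 18.9 with HGF and 4.57 to 8.63 with PBS, and the PDHX promoter lies at 5 to 11.2 with HGF and 7.8 to 16.7 with PBS.

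Over all 6 libraries no site was called in peak strength, near the genes of HGF and MET signalling or elsewhere. Without PBS library C none of the 54 sites near these genes was called. Of all 22747 sites there, 0.365% were called higher and 0.0615% lower, so no call among so few is not a result about these genes. The other 11 lists held no call either. Sites were read within 50 kb of a start for 12 gene lists, and the members were described against all sites. For the 21 genes of the HGF and MET list, which holds the receptor, the proteases that activate HGF, their inhibitors and the adaptors of MET, 30 sites were listed in all 6 libraries, with a median log2 difference of -0.12 (all sites -0.01). Of these, 2 were higher and 5 lower at an unadjusted p below 0.05 by limma, where all sites gave 8.56% higher and 7.04% lower. Split by kind, the median was -0.18 over 18 promoter sites and 0.17 over 12 distal sites, the same signs as over all sites of each kind. Of the 134 tested sites near these genes, 6 (4.48%, against 3.08% of all tested sites) had a peak in all 3 HGF libraries and in no PBS library.

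The MET promoter (chr7:116671808-116672569) had a fold enrichment of 11.8, 12.6 and 8.7 with HGF and 12.5, 12.8 and 8.93 with PBS, and the groups overlapped almost throughout. The log2 difference was -0.17 ± 0.16 (SE), with a limma adjusted p of 0.626. Within the gene, intron sites 7.47 kb and 44.6 kb from the start (chr7:116679513-116679847 and chr7:116716671-116717099) had a peak in every library but PBS library C. The former had 14.1, 15.4 and 8.37 with HGF and 8.85 and 10.4 in PBS libraries A and B, and the latter 19.5, 16.4 and 11 with HGF and 11.2 and 14.5. Their log2 differences without PBS library C were 0.41 ± 0.18 and 0.32 ± 0.17 (SE), with limma adjusted p-values of 0.227 and 0.33. A site upstream of MET (chr7:116629078-116629416), 43 kb from the start, had weak peaks in the HGF libraries alone (4.53, 3.18 and 4.09). HGF itself had no promoter peak in any library and 1 tested site, in an intron, with peaks of 9.31 and 12 in HGF libraries A and B.

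Further members of the list had a site with a peak in all 3 HGF libraries and no PBS library. CD44, an adhesion receptor that acts as a co-receptor of MET, had one 27.1 kb upstream (chr11:35111332-35112376), with 7.85, 9.68 and 4.79 in HGF libraries A, B and C. A site 20.2 kb from SPINT1, an inhibitor of the proteases that activate HGF, had 10.4, 13.3 and 7.98, and its nearest start was that of PPP1R14D. A site in an intron of SHC1, an adaptor of receptor kinases, had 3.02, 2.69 and 2.99. HPN, a protease that can activate HGF, had one in an intron with 9.32, 5.96 and 3.71. The median peaks of these libraries had 7, 7.16 and 5.77, so in all 3 the SPINT1 site lay above the median and the SHC1 site below it.

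The pathways downstream of MET gave a like picture. For 22 MAPK targets and feedback genes the median log2 difference over 38 sites was -0.11. It was -0.26 over 16 promoter sites and 0.02 over 22 distal sites. At an unadjusted p below 0.05 by limma 1 site was higher and 3 lower, where all sites gave 8.56% and 7.04%. Of their 157 tested sites, 5 (3.18%, against 3.08% of all tested sites) had a peak in the HGF libraries alone. They lay within 50 kb of IER2 and JUNB, immediate early genes, DUSP5, a phosphatase of ERK, ETV4, an ETS factor, and CCND1, cyclin D1. The start nearest to the JUNB site was that of BEST2. The CCND1 site is its promoter (chr11:69640796-69641453), with 5.41, 5.56 and 3.94 in HGF libraries A, B and C and no listed peak in any PBS library. It had a peak in all 4 CTRL libraries and in 17 of the other 36. On adjusted detection its difference was 0.56, with a limma adjusted p of 0.494.

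The EGFR family of ligands and receptors had a median of -0.08 over 15 sites. Peaks with HGF alone lay at 3 of 70 tested sites (4.29%, against 3.08% of all tested sites). These lay within 50 kb of the ligand genes HBEGF, AREG and EREG. The nearest start was that of PFDN1 at the HBEGF site and that of AREG at the EREG site. The AREG site (chr4:74490557-74491245) had 9.36, 14 and 5.18. The adhesion and migration genes had a median of -0.01 over 40 sites, and 5 of 190 tested sites (2.63%) had peaks with HGF alone, near CCN1, a matricellular protein, the integrins ITGA2 and ITGB6, and PTK2, which encodes focal adhesion kinase. The ITGA2 intron site had 6.53, 5.96 and 6.53. For invasion and matrix proteolysis genes the median was -0.09 over 15 sites, and none of 72 tested sites had peaks with HGF alone.

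In the remaining lists, cell cycle genes had a median of -0.16 over 32 sites, 27 of them promoters. At an unadjusted p below 0.05 by limma 0 sites were higher and 4 lower, where all promoter sites gave 2.04% and 10.6%. Of 112 tested sites, 5 (4.46%, against 3.08% of all tested sites) had peaks with HGF alone, near CDC25A, CDK6, MYBL2, CCND1 and E2F1. Keratins and their regulators had a median of 0.01 over 23 sites, with 2 of 110 tested sites (1.82%) near KRT7 and KRT6B. Quiescence and FOXO targets had -0.14 over 40 sites and 2 of 118 tested sites (1.69%) near IRS2 and PIK3IP1. Cholesterol synthesis genes had -0.11 over 18 sites and 0 of 61 tested sites. Glucocorticoid response genes had -0.06 over 22 sites and 1 of 84 tested sites (1.19%), near CEBPD. Interferon response genes had -0.11 over 17 sites and 3 of 70 tested sites (4.29%), among them sites near IFIT3 and GBP1. Housekeeping genes, taken as a reference, had -0.10 over 28 sites and 3 of 92 tested sites (3.26%), among them sites near POLR2A and RPLP0. The nearest start was that of another gene at the sites named for CDC25A, E2F1, KRT6B, PIK3IP1, CEBPD, IFIT3, GBP1, POLR2A and RPLP0. In all 12 lists the median over promoter sites was below 0, from -0.28 for glucocorticoid response to -0.13 for keratins. The median over distal sites was below 0 for cell cycle (-0.13), quiescence (-0.04) and cholesterol synthesis (-0.03). It was above 0 in the other lists, up to 0.20 for interferon response (5 sites).

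Sequence motifs were compared over the sites each library detected. For each of 25 strings the sites with the string within 100 bp of the summit were counted and compared with the number predicted from the library's detection of each class of site, as a percent deviation. AP-1 sites (TGANTCA, 23596 of the tested sites) deviated by 1.12%, 1.05% and -7.67% in HGF libraries A, B and C and by -8.48%, -9.13% and -27.6% in PBS libraries A, B and C. The groups did not overlap, with means of -1.83% ± 5.06 and -15.1% ± 10.9 (SD, n = 3 each), although HGF library C lay close to PBS library A. The exact permutation p was 0.1 and the adjusted p over the 25 strings 0.156.

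RUNX sites (TGTGGTT), bound by the RUNX factors of epithelial and blood cells, deviated by 0.909%, 1.14% and -1.43% with HGF and by -12.6%, -11.4% and -26.5% with PBS. TEAD sites (CATTCCA), bound by the factors that act with YAP, deviated by 0.476%, 0.584% and 4.08% with HGF and by -8.02%, -8.51% and -13.4% with PBS. In both motifs every HGF library lay above every PBS library. The NRF2/MAF string, which contains the AP-1 string, differed by 13.6 points.

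Other strings differed in the opposite direction, among them several that are common in promoters. NRF1 sites (GCGCATGCG) deviated by -0.941%, 0.38% and -3.92% with HGF and by 14.3%, 12.5% and 22.3% with PBS. KLF/SP sites (GGGCGGG) differed by -12.2 points, CRE sites (TGACGTCA) by -11.9, YY1 sites (AAGATGGCG) by -14.9 and ETS sites (CCGGAAG) by -8.17. The groups did not overlap in any of these 5 strings. Glucocorticoid receptor (GR) sites, 440 of the tested sites, deviated by 0.911%, 0.823% and 12.8% with HGF and by 19.6%, 19.9% and 53.2% with PBS, a difference of -26 points, and over distal sites outside repeats it was -45.2 points. NF-kB sites differed by -8.57 points over all tested sites and by -15.2 over distal sites, and SMAD sites (GTCTAGAC), which are few (146 of the tested sites), differed by 22.6 points in the direction of RUNX. The groups did not overlap in these 3 strings either.

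For the motif set as a whole, 0 of 25 strings had an adjusted p below 0.05 or an unadjusted p below 0.05 by the exact permutation test, whose smallest possible p is 0.1. The groups did not overlap for 16 of the 25 motifs, of which KLF/SP reads the same backwards. For the other 24, the groups did not overlap for 15 motifs and for 11 of the same strings written backwards, that of TEAD (12.6 points) among them, so groups that do not overlap are not particular to the motifs. Over distal sites outside repeats 7 of the 24 backward strings had groups that did not overlap, against 16 of all 25 motifs, KLF/SP among them. With the strongest peaks at distal sites the counts lay closer together, at 11 of 23 backward strings and 15 of all 25 motifs. Over distal sites outside repeats the AP-1 difference was 5.93 points and the groups overlapped, while RUNX differed by 12.4 points, TEAD by 7.82 and KLF/SP by -14.6 with no overlap, and ETS by -1.4 with overlap. Over the strongest peaks at distal sites the groups did not overlap for AP-1 (6.53 points), RUNX (12.5), ETS (-10.3) and KLF/SP (-28.1). They overlapped there for TEAD (7.49) and SMAD (22), so overlap for AP-1, TEAD and ETS depended on the peaks taken. Without PBS library C the difference over all sites was 6.97 points for AP-1, 12.2 for RUNX and 9.98 for TEAD. It was 5.82 points for NRF2/MAF, 15.7 for SMAD, -14.9 for GR, -10.9 for NF-kB, -14.9 for NRF1 and -10.2 for KLF/SP.

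**Figure D5:**
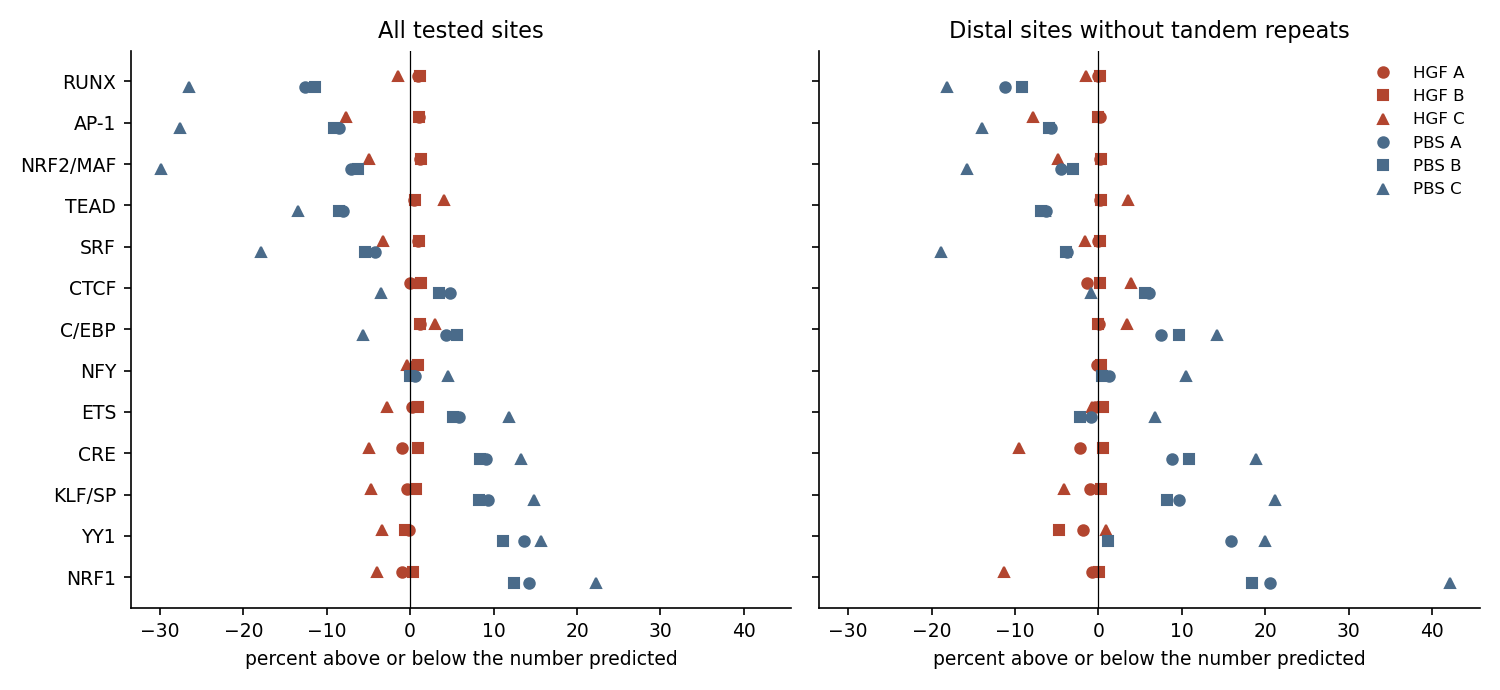
Percent deviation of detected from predicted sites for a selection of the 25 motif strings, over all tested sites on the left and over distal sites without tandem repeats on the right. Each library is a point, HGF in red and PBS in blue, with shapes for the letters. Over all tested sites RUNX, TEAD and AP-1 points lie higher with HGF (differences of 17, 11.7 and 13.2 points) and NRF1, YY1 and KLF/SP points higher with PBS (-17.9, -14.9 and -12.2 points).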

How the data were processed

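Omni-ATAC libraries were sequenced by the authors, who trimmed read pairs with Trimmomatic 0.36.5, aligned them to hg38 with Bowtie2 2.3.4.1, removed secondary, unmapped and mitochondrial reads and duplicates (Picard) and called peaks per library, without a control, with MACS2 2.1.1.20160309.5 at q 0.01. The deposited files list each summit with its fold enrichment, a ratio to the local background, and its −log10 p and −log10 q as MACS2 writes them. No filter on mapping quality is stated, and the depth is unknown. Libraries were grouped from the labels, which do not say whether replicates were separate cultures. The study describes its samples as biological triplicates. The p-values measure only the spread between these libraries. No value was identical between replicates, and libraries of 1 group shared 81.9% to 96.5% of the sites of the smaller list.

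Sites were merged on chromosomes 1 to 22 and X and named after the nearest protein-coding start (GENCODE annotation). In the gene lists a site was named after a list gene with a start within 50 kb, which was not always the nearest gene. limma 3.58.1 (R 4.3.3) was fitted to adjusted detection in all 42 libraries (13 groups, adjusted p below 0.01 and difference of at least 0.5) and to the strength of the 6 libraries (eBayes with trend). On simulated data the detection test made false calls at sites of near-zero spread, so each site's spread was set to at least the median over sites, a choice made after seeing the data. Exact permutation tests were two-sided (scipy 1.17.1). Motifs are plain strings searched on both strands. Tandem repeats are sites where a 2000 bp window matches itself at 60% or more one repeat length on.

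Named sites were those called and, where fewer than 3 were called in a direction, the 6 strongest switching sites by mean fold enrichment. Sites called only by alternatives, and the gene names beyond the lists, were chosen after their values were seen. The members and lists were chosen with earlier results of these data known. Letters are those of the sample titles, and the labels do not say what they mark. Correlations of same-letter deviations were 0.00944, -0.00463 and -0.0107 for detection, and 0.194, 0.12 and 0.345 for strength, each above the 0.1 taken as pairing, so the strength fit was also run with the letter as a block. Libraries of different letters gave 0.238 (HGF B with PBS A), 0.0978 (HGF A with PBS B) and -0.301 to -0.152 (pairs with 1 C library), so letters A and B are not told apart by these values. Alternatives changed the normalization, filters, window, test and libraries. Peaks on other contigs were left out. Some named sites and genes are not reported here.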

Additional observations from a re-analysis of the deposited data

How the results depend on the processing

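Peak number (ratio 1.85) and promoter share (-9.69 points) kept their direction in all alternatives run, and leaving out 1 library in turn gave ratios of 1.26 to 2.56 and differences of -12.9 to -6.16 points. With the replicate block the exact permutation p was 0.25 for both, the smallest it allows. Site detection stayed at 0 calls in 14 alternatives, the replicate block among them. It rose to 99 without a lower limit on the spread of a site, to 1578 with library weights and, when 1 library was left out, ranged from 0 to 4, with the 4 (all lower) without HGF library C. Peak strength stayed at 0 calls in 7 alternatives, of which the main limma fit at an adjusted p below 0.01 could give no other count. It gave 1 call with median centring, 351 on the recovered pileup (235 higher, 116 lower), 823 with library weights, 97 over the sites of the 5 libraries other than PBS C, 33 with the replicate block and 5 without tandem-repeat sites. Leaving out 1 library gave 0 to 20 calls, with 20 (3 higher, 17 lower) without HGF library C and 6 (5 higher, 1 lower) without PBS library C. The cause of these changes was not tested. Motif deviation gave 0 of 25 in 13 alternatives, the replicate block (smallest adjusted p 0.329, permutation) included. No permutation p here can fall below 0.1, so no other count was possible and this count says nothing of stability. Of 12 gene lists, the median of the EGFR family list moved from -0.08 at 50 kb to 0.11 at 100 kb. The alternatives without a lower limit on the spread, without tandem repeats and over distal sites were chosen after seeing the data. With depth unknown, an absent peak does not show closed chromatin.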

Other observations

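Peaks of the 93 tandem-repeat sites with a peak in all 3 PBS libraries and no HGF library at 48 h were also listed at 24 h in both treatments. HGF libraries A, B and C at 24 h listed 17.2%, 10.8% and 71% of them, and PBS libraries A, B and C at 24 h listed 16.1%, 62.4% and 47.3%. The libraries with high shares were those that detected few of all tested sites (47% for HGF library C, 54.3% and 47.3% for PBS libraries B and C). The exact permutation test of the deviations at 24 h gave p = 0.9.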
